A study of Homo sapiens with 6 samples.

Results

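The genes described here encode alpha- and beta-tubulins and were read in RNA-seq libraries of MDA-MB-231 cells. The 10 genes, of 16623 in the files, were chosen by name through their NCBI Gene ID, with no measured value in the rule: the alpha-tubulin genes TUBA1A, TUBA1B, TUBA1C and TUBA4A and the beta-tubulin genes TUBB, TUBB2A, TUBB2B, TUBB3, TUBB4B and TUBB6. MDA-MB-231 is an established triple-negative breast cancer cell line, and PCI-24781 is a small-molecule inhibitor of histone deacetylases (HDACs). Cells received 100 nM or 200 nM PCI-24781, or its solvent DMSO, and RNA was sequenced after 24 h or 48 h, which gave 6 libraries with 1 for each condition. No difference below therefore has a replicate check, and no test was run. The 4 alpha and 6 beta genes were read as FPKM, a fragment number corrected for the length of the transcript and the depth of the library, so that levels can be compared between genes. Changes are differences in log2(FPKM + 1) from the DMSO library of the same time, and a gene was counted as called at 2-fold or more if 1 of the compared libraries, or both, reached 1 FPKM.

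Microtubules are hollow polymers of a dimer of alpha- and beta-tubulin, and they carry cargo, shape the cell and form the mitotic spindle. Each subunit comes from several genes whose proteins, called isotypes, differ mainly at the acidic C-terminal tail. New tubulin is folded by prefoldin, the chaperonin CCT and the tubulin cofactors. When free dimer is in excess, cells degrade tubulin messages during translation, through TTC5, which recognises the first residues of the new chain at the ribosome. Alpha-tubulin is acetylated on the lysine at position 40 by ATAT1 and deacetylated by HDAC6 and SIRT2. In breast cancer, tubulin is the target of taxanes and vinca alkaloids, and TUBB3, the neuronal beta isotype, is known for its association with taxane resistance.

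The coding starts show how alike the members are where the autoregulation signal is read. They were taken from GENCODE release 29 transcripts, 5′ to 3′, as the first 30 coding bases with the first 4 codons in capitals. Within these bases TUBA1A, TUBA1B and TUBA1C were identical.
TUBA1A: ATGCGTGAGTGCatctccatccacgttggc
TUBA1B: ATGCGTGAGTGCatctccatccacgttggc
TUBA1C: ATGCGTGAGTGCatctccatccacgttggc
TUBA4A: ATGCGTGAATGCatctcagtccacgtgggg
TUBB: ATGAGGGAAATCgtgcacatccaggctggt
TUBB2A: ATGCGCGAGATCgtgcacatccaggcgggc
TUBB2B: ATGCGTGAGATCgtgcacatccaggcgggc
TUBB3: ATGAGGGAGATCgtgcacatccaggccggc
TUBB4B: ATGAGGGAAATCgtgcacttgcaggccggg
TUBB6: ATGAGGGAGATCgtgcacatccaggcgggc

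The alpha genes were also compared around the codon of the acetylated lysine. Codons 37 to 43 are printed with codon 40 in capitals, and all 4 genes had AAG there.
TUBA1A: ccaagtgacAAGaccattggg
TUBA1B: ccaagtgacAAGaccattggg
TUBA1C: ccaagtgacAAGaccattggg
TUBA4A: cccagtgacAAGaccattggt

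Over the whole coding sequence, TUBA1A and TUBA1B shared 97.2% of bases, with 38 mismatches, and TUBB2A and TUBB2B shared 98.1%, with 25 mismatches. TUBA4A shared between 84.4% and 85.7% with the TUBA1 genes. TUBB3 was closer to TUBB6, at 87.5%, than to TUBB, at 81.7%. Reads from such sequences can be assigned to the wrong gene. Of all 50-base windows of a transcript, 62.7% in TUBA1B, 41.1% in TUBA1A and 25.1% in TUBA1C occurred in another tubulin gene or pseudogene, as did 65.5% in TUBB2A and 52.2% in TUBB2B. In TUBB the share was 18.2%, and for TUBB3, TUBB4B, TUBA4A and TUBB6 it was 8.9%, 9.89%, 5.25% and 0.993%. The split among TUBA1A, TUBA1B and TUBA1C, and between TUBB2A and TUBB2B, is therefore uncertain, and their sums are given beside them.

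The files place TUBA1B (chr12:49521565-49525304, minus strand), TUBA1A (chr12:49578578-49583107, minus strand) and TUBA1C (chr12:49621709-49667121, plus strand) next to each other on chromosome 12. TUBB2A (chr6:3153900-3157783) and TUBB2B (chr6:3224495-3227968) are neighbours on the minus strand of chromosome 6. TUBA4A lies on chromosome 2 from 220114433 to 220119330, TUBB3 on chromosome 16 from 89988417 to 90002505, TUBB4B on chromosome 9 from 140135711 to 140138159 and TUBB6 on chromosome 18 from 12307668 to 12329825. TUBB is placed on an alternate haplotype of chromosome 6. TUBA4A overlaps STK16, TUBB4B overlaps CIMIP2A and TUBB6 overlaps AFG3L2, each on the opposite strand, and whether strand was used in counting is not given in the sources used here, so reads in the overlaps cannot be told apart. The files name no build, and the submitters' processing notes list hg19.

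The files hold no counts. From the steps between low values, the depth was about 15600000 to 17800000 fragments per library, so for a 2 kb transcript 3 fragments are worth 0.0843 to 0.0962 FPKM. On this scale TUBB rested on about 45000 to 61000 fragments per library, and TUBB2B on about 34 to 49. The number of genes listed at 0 was highest in DMSO 24 h, at 1708, and lowest at 200 nM 24 h, at 1130. Of the line's markers, the mesenchymal gene VIM had an FPKM between 1629.38 and 2053.39, whereas ESR1 and PGR, the hormone receptor genes of luminal cells, did not exceed 0.04. Other luminal markers were detected, with ERBB2 between 13.16 and 21.36 FPKM, EPCAM between 2.26 and 4.7 and FOXA1 between 1.28 and 1.75. The luminal markers GATA3, between 0.7 and 1.03, and CDH1, between 0.24 and 0.39, were low. The other basal or mesenchymal markers listed, CD44, EGFR, CAV1 and AXL, stood at 35.12 FPKM or more in every library. Of 9 neuron markers, only SYP exceeded 0.19. The labels set the DMSO libraries apart by time alone, yet 301 of 11490 genes, 2.62%, were called between them. Time in culture and exchanged labels cannot be told apart here, and an exchange would alter each value against DMSO. Every change at 24 h uses DMSO 24 h and every change at 48 h uses DMSO 48 h, so values against the other DMSO library are given where they turn a direction.

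The level of tubulin message was high and rested on 4 genes. By mean FPKM over the 6 libraries, TUBB ranked 29, TUBA1B 30, TUBA1C 93 and TUBB4B 99 of 16623 genes. TUBB6 ranked 514, TUBA1A 534, TUBB3 996, TUBA4A 1772, TUBB2A 4132 and TUBB2B 11257. Within each library the lower places were fixed, with TUBB3, TUBA4A, TUBB2A and TUBB2B in places 7 to 10 of 10. The order of TUBB and TUBA1B at the top, and of TUBA1A and TUBB6 in the middle, changed between libraries, and TUBB4B passed TUBA1C at 200 nM 24 h.

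**Figure D1:**
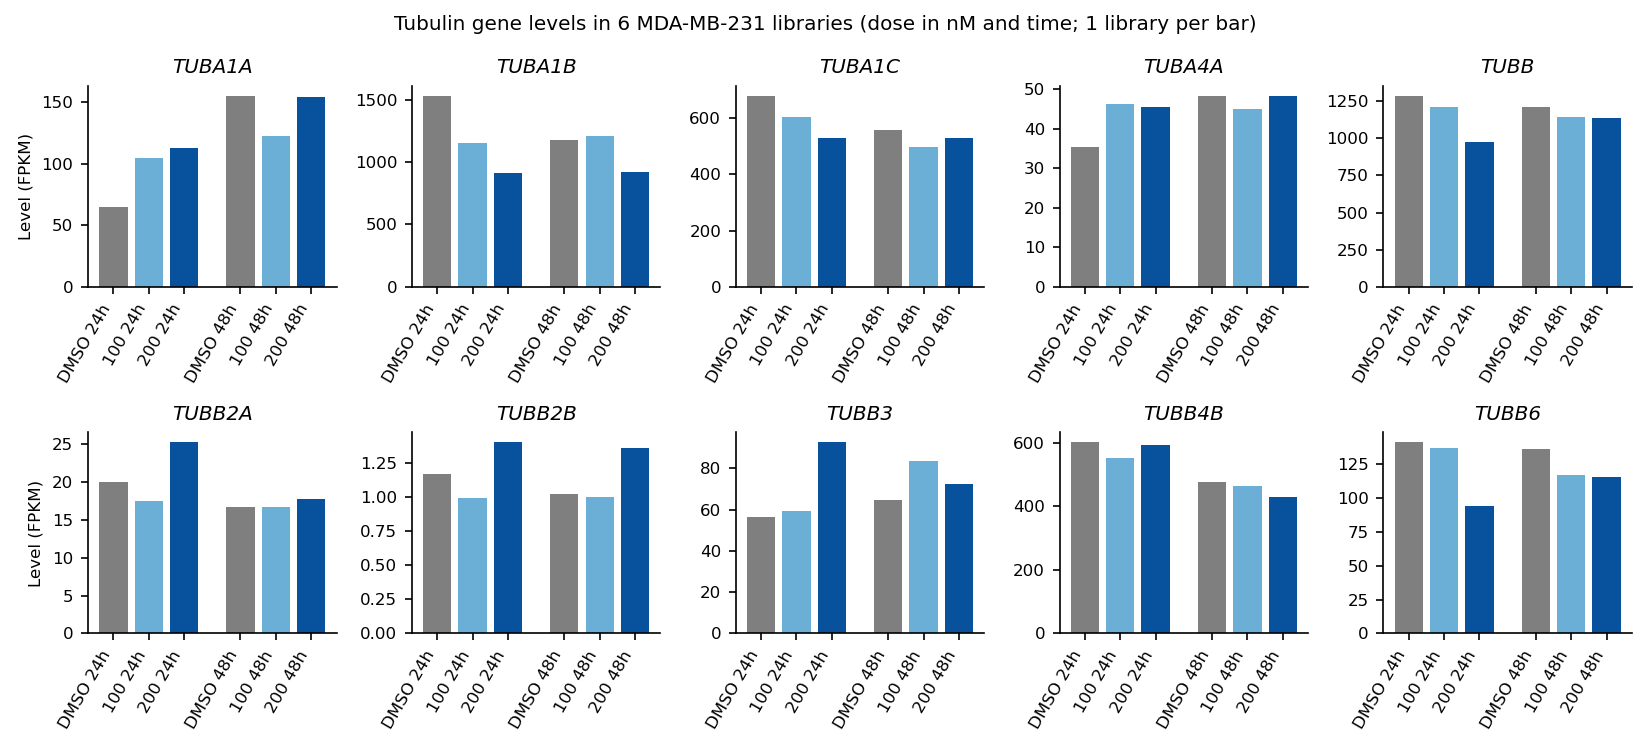
Level of each tubulin gene (FPKM, linear axis from 0, a scale of its own in each panel) in the 6 libraries. Each bar is 1 library, gray for DMSO, light blue for 100 nM and dark blue for 200 nM, with 24 h on the left and 48 h on the right. TUBA1A has its lowest bar in DMSO 24 h, at 64.42, and TUBB3 its highest at 200 nM 24 h, at 92.74.

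Among the alpha genes, TUBA1B, which encodes the most abundant alpha-tubulin of many dividing cells, was at 1531.6 FPKM with DMSO, 1152.95 with 100 nM and 912.78 with 200 nM at 24 h, and at 1177.47, 1208.96 and 916.26 FPKM in the same order at 48 h. Both 200 nM libraries were thus below all others, and DMSO 24 h was above all others. The difference from DMSO on the log2 scale was -0.41 (100 nM) and -0.75 (200 nM) at 24 h, then 0.04 and -0.36 at 48 h. The 200 nM values remained negative against the other DMSO library, at -0.37 for 24 h and -0.74 for 48 h, and that of 100 nM 48 h turned to -0.34. From 100 nM to 200 nM, a step that uses no DMSO library, the difference was -0.34 at 24 h and -0.40 at 48 h. At 200 nM 48 h, 7.77% of all tested genes and 4.77% of the genes whose mean reached 100 FPKM lay at least as far from 0. In the other comparisons with DMSO the share of all tested genes was 14.6% (100 nM 24 h), 12.3% (200 nM 24 h) and 82.2% (100 nM 48 h). For the dose steps this share was 20.3% at 24 h and 17.5% at 48 h. DMSO 48 h itself stood at a log2 difference of -0.38 from DMSO 24 h.

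TUBA1A, the alpha isotype that prevails in developing neurons, ran the other way at 24 h. With DMSO, 100 nM and 200 nM its level was 64.42, 104.87 and 112.96 FPKM at 24 h, against 155.07, 122.59 and 153.75 FPKM at 48 h. All 3 libraries of 48 h were above all 3 of 24 h, a split whose share among all genes was not counted, and DMSO 24 h stood lowest. The log2 differences from DMSO were 0.69 (100 nM) and 0.80 (200 nM) at 24 h, then -0.34 and -0.01 at 48 h. DMSO 48 h was 1.25 above DMSO 24 h, and TUBA1A was the only member called in that comparison, in which 2.49% of the tested genes were called higher. Only 1.25% of the tested genes differed at least as far between the DMSO libraries. Against DMSO 48 h, the values of the 24 h libraries turned negative, at -0.56 and -0.45, and against DMSO 24 h those of the 48 h libraries turned to 0.92 and 1.24, so the direction of TUBA1A followed the choice of DMSO library. The dose step was small at 24 h, with a log2 difference of 0.11, and 0.32 at 48 h.

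TUBA1C, a further alpha gene of dividing cells, was at 678.56 FPKM with DMSO, 603.72 with 100 nM and 527.62 with 200 nM at 24 h, and at 555.31, 496.47 and 527.05 FPKM in the same order at 48 h. DMSO was highest at each time. The log2 differences from DMSO were -0.17 (100 nM) and -0.36 (200 nM) at 24 h, then -0.16 and -0.08 at 48 h. Summed with its near-identical neighbours, the TUBA1 group differed from DMSO by -0.29 (100 nM) and -0.55 (200 nM) at 24 h, then by -0.05 and -0.24 at 48 h. Summing lessens the uncertainty of the split among the 3 genes but does not remove it, since FPKM is corrected for length. Their transcripts were 1915 (TUBA1A), 1627 (TUBA1B) and 3001 (TUBA1C) bases long. Against DMSO 48 h, TUBA1C alone at 100 nM 24 h turned to 0.12. In DMSO 48 h against DMSO 24 h the sum stood at -0.27, where TUBA1A alone stood at 1.25.

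TUBA4A, an alpha isotype known from platelets and neurons and the least similar of the 4 here, was at 35.39 FPKM in DMSO 24 h and between 44.99 and 48.44 in the other 5 libraries. The gene thus differed from the rest in DMSO 24 h alone. Its log2 differences from DMSO were 0.38 (100 nM) and 0.35 (200 nM) at 24 h, then -0.10 and -0.00 at 48 h, and DMSO 48 h was 0.44 above DMSO 24 h. Against DMSO 48 h, the 24 h values turned to -0.06 and -0.09. Against DMSO 24 h, the 48 h values turned to 0.34 (100 nM) and 0.44 (200 nM), so the direction of TUBA4A also followed the choice of DMSO library.

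Among the beta genes, TUBB, the main beta-tubulin of dividing cells, was at 1286.55 FPKM with DMSO, 1207.95 with 100 nM and 976.94 with 200 nM at 24 h, and at 1209.03, 1141.25 and 1135.6 FPKM in the same order at 48 h. It varied least of the 10, with a highest level 1.32 times its lowest, and the lowest was at 200 nM 24 h. The log2 differences from DMSO were -0.09 (100 nM) and -0.40 (200 nM) at 24 h, then -0.08 and -0.09 at 48 h. The value at 200 nM 24 h was -0.31 against DMSO 48 h.

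TUBB4B, a beta isotype found in most tissues and in cilia, was at 602.3 FPKM with DMSO, 552.46 with 100 nM and 593.88 with 200 nM at 24 h, and at 477, 465.43 and 429.79 FPKM in the same order at 48 h. The 3 libraries of 24 h were all above those of 48 h, and the share of all genes that split by time like this was not counted. Within a time the log2 differences from DMSO were small, at -0.12 (100 nM) and -0.02 (200 nM) at 24 h, then -0.04 and -0.15 at 48 h. DMSO 48 h stood -0.34 from DMSO 24 h, and against DMSO 48 h the 24 h values turned to 0.21 and 0.32.

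TUBB6, a beta isotype whose excess is known to disturb microtubules in muscle, was at 141.16 FPKM with DMSO, 137.02 with 100 nM and 94.28 with 200 nM at 24 h, and at 135.9, 116.97 and 115.62 FPKM in the same order at 48 h. The 200 nM 24 h library stood below the other 5. The log2 differences from DMSO were -0.04 (100 nM) and -0.58 (200 nM) at 24 h, then -0.21 and -0.23 at 48 h. The dose step at 24 h was -0.53, while that at 48 h was -0.02. Against DMSO 48 h, 100 nM 24 h turned to 0.01 and 200 nM 24 h was -0.52.

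TUBB3, which is largely restricted to neurons among normal tissues, was at 56.57 FPKM with DMSO, 59.17 with 100 nM and 92.74 with 200 nM at 24 h, and at 64.77, 83.53 and 72.53 FPKM in the same order at 48 h. The highest level was at 200 nM 24 h, and both 200 nM libraries and 100 nM 48 h were above both DMSO libraries. The log2 differences from DMSO were 0.06 (100 nM) and 0.70 (200 nM) at 24 h, then 0.36 and 0.16 at 48 h. TUBB3 was the only member above DMSO in all 4 comparisons, a pattern that 10.1% of the genes tested in all 4 shared. Against the other DMSO library, 100 nM 24 h turned to -0.13, and the remaining 3 stayed positive at 0.51, 0.55 and 0.35. Of the tested genes, 78.9% (100 nM) and 13.8% (200 nM) lay at least as far from DMSO at 24 h, and 8.47% and 34.8% at 48 h. The dose step was 0.64 at 24 h, where 3.86% of the tested genes moved at least as far. At 48 h the step was -0.20, where 43.7% did, so the order of the doses was not the same at the 2 times. The ratio of TUBB3 to TUBB6 was 0.401 with DMSO, 0.432 with 100 nM and 0.984 with 200 nM at 24 h, and 0.477, 0.714 and 0.627 in the same order at 48 h.

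TUBB2A and TUBB2B, beta isotypes that are abundant in brain, were low. TUBB2A was at 20.06 FPKM with DMSO, 17.44 with 100 nM and 25.27 with 200 nM at 24 h, and at 16.74, 16.7 and 17.73 FPKM in the same order at 48 h, with 200 nM 24 h the highest. The log2 differences of TUBB2A from DMSO were -0.19 (100 nM) and 0.32 (200 nM) at 24 h, then -0.00 and 0.08 at 48 h. Against the other DMSO library, TUBB2A turned to 0.06 at 100 nM 24 h and to -0.17 at 200 nM 48 h. TUBB2B lay between 0.99 and 1.4 in all 6 libraries, and at this depth its differences from DMSO, between -0.12 and 0.22 on the log2 scale, rest on the few fragments given above. As assigned, TUBB2A was between 13 and 18.1 times as high as TUBB2B in every library, a ratio that rests on the uncertain split. The sum of both genes was 21.23, 18.43 and 26.67 FPKM (DMSO, 100 nM, 200 nM) at 24 h, and 17.76, 17.7 and 19.09 FPKM at 48 h. This sum differed from DMSO on the log2 scale by -0.19 (100 nM) and 0.32 (200 nM) at 24 h, then by -0.00 and 0.10 at 48 h.

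**Figure D2:**
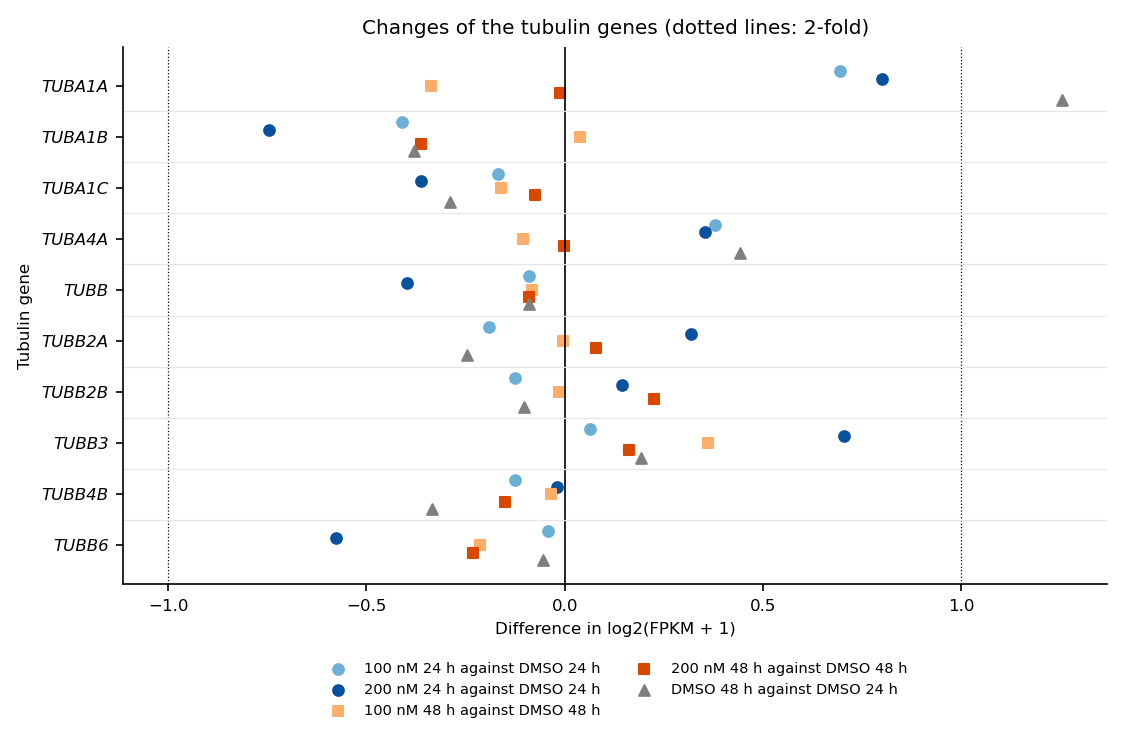
Difference in log2(FPKM + 1) of each tubulin gene (horizontal axis) in 4 comparisons of PCI-24781 with DMSO of the same time (circles for 24 h, squares for 48 h, the darker color for 200 nM) and between the DMSO libraries (gray triangles). Dotted lines mark 2-fold in either direction. All circles and squares lie between the lines, and only the triangle of TUBA1A, at 1.25, lies outside.

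Read as a group, 0 of 10 members were called in any of the 4 comparisons with DMSO. Among all tested genes, the share called in either direction at 24 h was 1.48% (100 nM) and 5.94% (200 nM), and at 48 h 0.469% and 0.266%, so few or no calls among 10 genes are near the background. The dose steps, with 0.524% of genes called at 24 h and 2% at 48 h, held 0 members called as well. With a threshold of 1.5-fold, TUBA1A was higher at 100 nM 24 h, where 5.54% of genes were. At 200 nM 24 h TUBA1A and TUBB3 were higher and TUBA1B was lower, against 12.5% and 7.58% of genes. No member passed 1.5-fold against DMSO at 48 h, where 2.26% (100 nM) and 1.99% (200 nM) of genes did. From 100 nM to 200 nM at 24 h, TUBB3 alone was higher by 1.5-fold, as were 3.06% of genes.

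Counted at any size, 7 (100 nM) and 5 (200 nM) of 10 members were below DMSO at 24 h, and 8 and 7 at 48 h. Of all tested genes, 48.1%, 48.6%, 52.4% and 48.6% were. The median log2 difference of the members was -0.11, 0.06, -0.06 and -0.04 in the same order, and that of all tested genes lay between -0.01 and 0.01. TUBA1C, TUBB, TUBB4B and TUBB6 were below DMSO in all 4 comparisons, as were 11.3% of the genes tested in all 4, although TUBB4B turned to 0.00 at 100 nM 48 h with median-of-ratios scaling. The other 5 members, TUBA1A, TUBA1B, TUBA4A, TUBB2A and TUBB2B, had both signs.

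The summed level of each subunit depends less on how reads were split within a family. The split still matters in part, since FPKM is corrected for length and transcript lengths differ. Alpha members summed to 2309.97, 1907.85 and 1598.85 FPKM (DMSO, 100 nM, 200 nM) at 24 h, and to 1936.29, 1873.01 and 1645.42 FPKM at 48 h. Beta members summed to 2107.81, 1975.03 and 1784.51 FPKM at 24 h, and to 1904.46, 1824.88 and 1772.63 FPKM at 48 h. Both sums were highest in DMSO and lowest at 200 nM at each time. On the log2 scale the alpha sum differed from DMSO by -0.28 (100 nM) and -0.53 (200 nM) at 24 h, then by -0.05 and -0.23 at 48 h. The beta sum differed by -0.09 and -0.24, then by -0.06 and -0.10. DMSO 48 h stood -0.25 from DMSO 24 h for the alpha sum and -0.15 for the beta sum. Against the other DMSO library the alpha sum at 200 nM was -0.28 at 24 h and -0.49 at 48 h, while the beta sum at 100 nM 24 h turned to 0.05. Together the 10 genes held 1.05% (DMSO), 0.923% (100 nM) and 0.808% (200 nM) of all FPKM at 24 h, and 0.898%, 0.868% and 0.811% at 48 h.

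**Figure D3:**
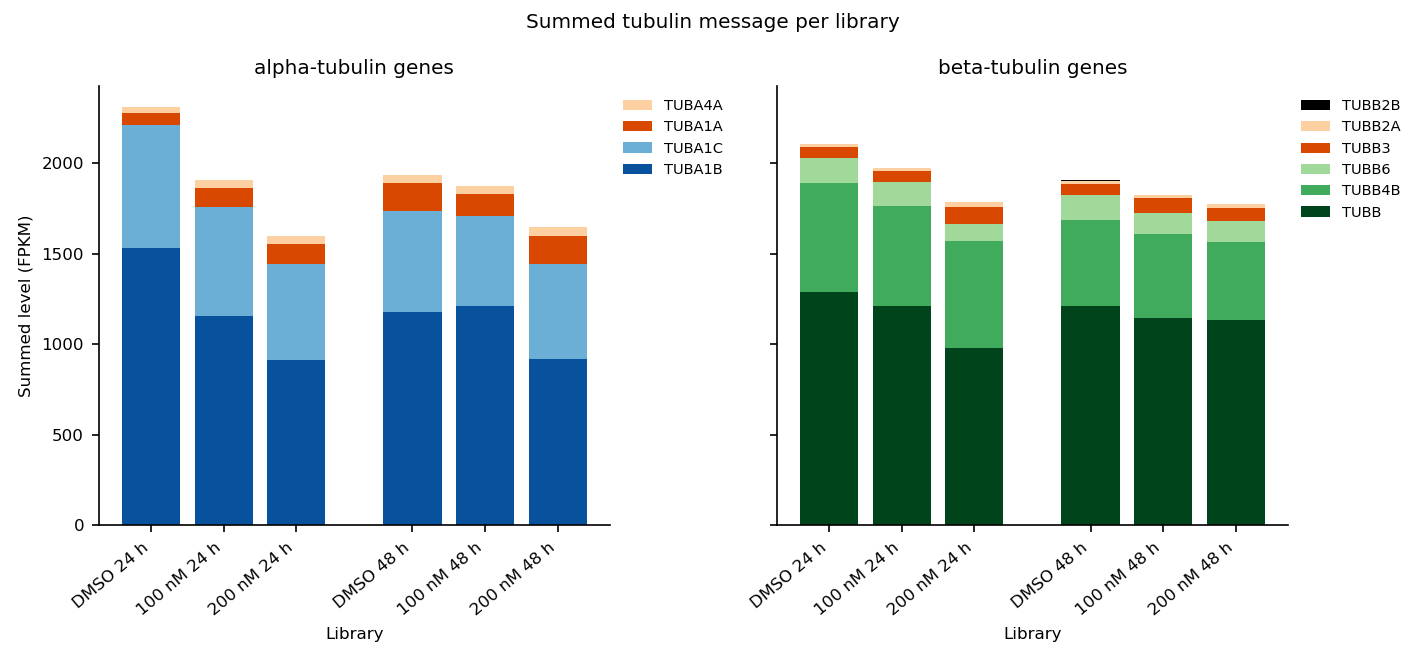
Summed level (FPKM) of the 4 alpha-tubulin genes (left) and the 6 beta-tubulin genes (right) in each library, with 1 color per gene and a shared axis from 0. The alpha bar is 2309.97 in DMSO 24 h against 1598.85 at 200 nM 24 h, and most of the gap is in the TUBA1B segment.

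The share of each gene in its family differed between libraries. TUBA1B held 66.3%, 60.4% and 57.1% of the alpha sum at 24 h for DMSO, 100 nM and 200 nM, and 60.8%, 64.5% and 55.7% at 48 h. TUBA1A held 2.79%, 5.50% and 7.07% at 24 h, then 8.01%, 6.55% and 9.34% at 48 h. At each time the share of TUBA1B was lowest and that of TUBA1A highest at 200 nM. TUBB held 61%, 61.2% and 54.7% of the beta sum at 24 h, then 63.5%, 62.5% and 64.1% at 48 h. TUBB3 held 2.68%, 3% and 5.20% at 24 h, then 3.40%, 4.58% and 4.09% at 48 h. The TUBB4B share was between 24.2% and 33.3% and that of TUBB6 between 5.28% and 7.14%, with the highest TUBB4B and lowest TUBB6 share both at 200 nM 24 h. The ratio of the alpha sum to the beta sum was 1.10, 0.966 and 0.896 at 24 h, then 1.02, 1.03 and 0.928 at 48 h, lowest at 200 nM at each time. These are ratios of message levels.

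Genes of tubulin supply and use were read from lists. Of all tested genes, 1.48% (100 nM) and 5.94% (200 nM) were called at 24 h, 0.469% and 0.266% at 48 h, and 2.62% between the DMSO libraries, and the counts below stand beside these shares. Among the other tubulins, 11 of 13 listed genes were found and 5 were tested at 200 nM 24 h. TUBB4A, a beta isotype of the nervous system, was the only one called there, with 0.15, 0.63 and 2.22 FPKM (DMSO, 100 nM, 200 nM) at 24 h, and 1, 0.88 and 1.18 FPKM at 48 h. TUBB4A was thus higher in each of the other 5 libraries than in DMSO 24 h, and no more than 1.18 at 48 h. TUBG1, the gamma-tubulin that nucleates microtubules, lay between 86.06 and 108.39 FPKM. No folding cofactor of 7 was called, and TBCA, the cofactor that holds beta-tubulin, lay between 159.18 and 194.08 FPKM. Of 15 CCT and prefoldin genes, 1 was called: PDCL3, a phosducin-like helper of CCT, had 23.86, 15.35 and 10.52 FPKM at 24 h and a log2 difference of -1.11 at 200 nM 24 h. CCT7, a chaperonin subunit, lay between 182.76 and 258.28 FPKM, and 12 of the 15 genes were lower in DMSO 48 h than in DMSO 24 h, beside 50.2% of all tested genes, with a median of -0.37 on the log2 scale.

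Of the 3 genes listed for tubulin autoregulation, 0 were called. TTC5, which recognises the start of the new tubulin chain, lay between 2.69 and 3.91 FPKM, and CNOT11, a subunit of the deadenylase complex that acts with it, between 28.73 and 31.64 FPKM. SCAPER, which links TTC5 to that complex, lay between 2.83 and 4.59 FPKM. At 200 nM 48 h all 3 were above DMSO, beside 51% of all tested genes, with a median log2 difference of 0.28. The value of CNOT11 there was 0.06. In the other comparisons with DMSO these genes had both signs. Of the 3, 1 (100 nM) and 2 (200 nM) were higher at 24 h, and 2 with 100 nM at 48 h. Of the modifying enzymes, 16 were tested at 200 nM 24 h and TTLL7, a polyglutamylase of beta-tubulin, was the only one called there, with 2.46, 5.47 and 6.01 FPKM (DMSO, 100 nM, 200 nM) at 24 h, and 4.43, 2.96 and 6.38 FPKM at 48 h. With median-of-ratios scaling TTLL7 fell short of the threshold. HDAC6 lay between 9.91 and 11.37 FPKM in all 6 libraries. SIRT2 was at 21.41, 21.74 and 35.77 FPKM at 24 h, then at 21.61, 30.02 and 22.27 FPKM at 48 h. The order of libraries at each time was the same as for TUBB3, and the share of all genes with this order was not counted. ATAT1 lay between 6.95 and 9.42 FPKM. TPGS2, a subunit of the neuronal polyglutamylase complex and the highest of the list, lay between 35.46 and 44.06 FPKM. These are message levels, which say nothing of tubulin acetylation.

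Of 10 genes of the gamma-tubulin ring, which nucleates microtubules, 0 were called. At 200 nM 24 h, 8 of the 10 were below DMSO by any amount, beside 48.6% of all tested genes, with a median log2 difference of -0.41. At 100 nM 48 h, 7 of the 10 were above DMSO, beside 47.2% of all tested genes, with a median of 0.10. MZT2B, a ring subunit, was at 74.84, 66.62 and 55.09 FPKM (DMSO, 100 nM, 200 nM) at 24 h, and at 74.46, 85.79 and 49.95 FPKM at 48 h. STMN1, or stathmin, which binds free dimers and favors disassembly, was at 393.83, 354.19 and 297.42 FPKM (DMSO, 100 nM, 200 nM) at 24 h, and at 363.64, 339.61 and 309.82 FPKM at 48 h. This is the same order of all 6 libraries as in the alpha sum, and the share of all genes with this order was not counted. The 8 mitosis markers were below DMSO in 8 of 8 genes at 200 nM 24 h, with a median of -0.40, and in 7 of 8 at 200 nM 48 h, with a median of -0.12, where 48.6% of all tested genes were below DMSO in either comparison. They were also lower in DMSO 48 h than in DMSO 24 h in 8 of 8 genes, with a median of -0.30. Their part in the lower alpha and beta sums was not tested, and in these bulk libraries fewer cells in mitosis and less message per cell cannot be told apart.

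Microtubule-binding proteins held the most called genes. At 200 nM 24 h, 6 of 24 tested genes were called higher, beside 4.47% of all tested genes, and their list was fixed with earlier results of these libraries known. MAPT, which encodes the axonal protein tau, was at 1.01, 4.56 and 8.71 FPKM (DMSO, 100 nM, 200 nM) at 24 h, and at 4.07, 2.53 and 6.47 FPKM at 48 h. MAPRE3, an end-binding protein enriched in neurons, was at 1.46, 6.03 and 11.6 FPKM (DMSO, 100 nM, 200 nM) at 24 h, and at 6.8, 4.96 and 10.54 FPKM at 48 h. At both times 200 nM was highest for both genes, but DMSO 48 h was also above 100 nM 48 h, as for TUBA1A. The other 4 were MAP2, DCLK1, MAPRE2 and CAMSAP3, with log2 differences of 1.45, 1.38, 1.04 and 1.21. All 6 genes had their lowest level in DMSO 24 h. There MAP2, DCLK1 and CAMSAP3 were at 0.11, 0.42 and 0.01 FPKM, below the 1 FPKM limit. These genes were thus tested at 200 nM 24 h only through the library in which they were higher. In DMSO 48 h MAP2, DCLK1, MAPRE2 and CAMSAP3 were at 1.94, 1.76, 17.9 and 0.58 FPKM, beside 2.04, 2.7, 25.35 and 1.34 at 200 nM 24 h. Against DMSO 48 h, the 200 nM 24 h levels of all 6 would fall short of the 2-fold call. At 100 nM 24 h, 3 of 22 were called, all higher. Between the DMSO libraries 3 of 23 were also called, all higher at 48 h, namely MAP2, MAPT and MAPRE3 with log2 differences of 1.41, 1.33 and 1.66. At 200 nM 48 h, 0 of 24 were called, and at 100 nM 48 h MAP2, a dendritic microtubule protein, was lower, at a log2 difference of -1.06. TPX2, a spindle assembly factor and the highest of the list, lay between 143.84 and 177.93 FPKM. Of the neuron markers, SYP, which encodes synaptophysin, was at 0.65, 1.58 and 6.4 FPKM at 24 h, then at 0.73, 0.77 and 2.65 FPKM at 48 h, and its part in the level of TUBB3 was not tested.

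**Figure D4:**
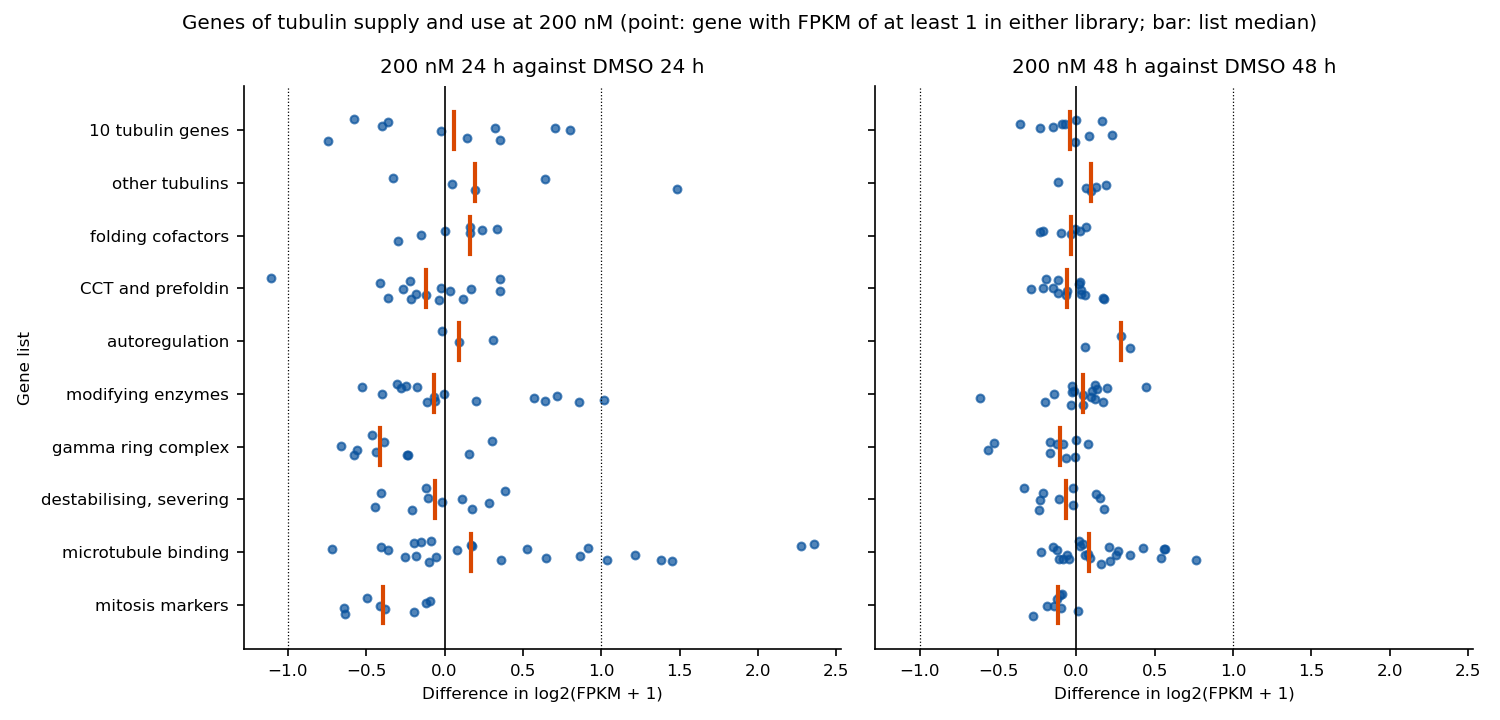
Difference in log2(FPKM + 1) from DMSO at 200 nM for the 10 tubulin genes and for 9 lists of related genes, at 24 h (left) and 48 h (right). Each point is 1 gene that reached 1 FPKM in the drug or the DMSO library, spread vertically for view, orange bars are list medians, and dotted lines mark 2-fold. The list medians lie between -0.41 and 0.19 at 24 h, and the points to the right of the 2-fold line are mostly microtubule-binding genes.

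Over the 6 libraries, TUBA1A was the alpha member and TUBB3 the beta member with the widest range. Genes that reached 10 FPKM in every library, 5647 in all, were compared with each by the root mean square difference of log2(FPKM + 1) centred on each gene's mean. The profiles nearest to TUBA1A were those of HCFC1R1, at 0.0705, MAPK13, at 0.0709, and DHCR7, an enzyme of cholesterol synthesis, at 0.0716. HCFC1R1 was at 130.29, 196.2 and 215.3 FPKM (DMSO, 100 nM, 200 nM) at 24 h, and at 267.41, 219.55 and 279.49 FPKM at 48 h. Nearest to TUBB3 were PYGB, the brain form of glycogen phosphorylase, at 0.0647, RRAGA at 0.0757 and ABHD4 at 0.0761. PYGB was at 42.14, 43.5 and 63.02 FPKM (DMSO, 100 nM, 200 nM) at 24 h, and at 45.35, 56.46 and 47.75 FPKM at 48 h. With 6 libraries, near profiles are a description only.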

How the data were processed

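RNA-seq was performed once for each of the 6 conditions. The authors calculated FPKM and deposited it per gene, rounded to 2 decimals. RNA was extracted with TRIzol and enriched for mRNA or depleted of rRNA before library construction. The submitters' processing notes list RSEM, Bowtie2 and hg19, with no roles or versions. No counts were used, so no count test was run, and with 1 library per condition no p-value was calculated. Groups were taken from the labels.

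From the deposited FPKM, differences in log2(FPKM + 1) were calculated. A pseudocount of 1 understates changes of low genes such as TUBB2B. A gene was tested if one or both of the compared libraries reached 1 FPKM, and called at 2-fold. The genes, lists and rules were chosen with earlier results of these data known. The text names all 10 members, each list gene called against DMSO or else the highest of its list, HDAC6, SIRT2, ATAT1 and TTC5, and for the widest-ranging alpha and beta member the 3 nearest profiles. SCAPER and the line markers were named after their values were seen. The listed genes TUBA3C, TUBA4B, TTLL10, TTLL13, AGBL1, AGBL4 and KIF2B were not analysed here, and 1 further listed gene and some sequences are not reported here. Gene names came from the RefSeq table of GRCh38.p14, which held 16585 of the 16623 IDs. Coding sequences came from GENCODE release 29 on GRCh38. Depth was inferred from the steps of low values and is approximate. Scripts were tested on simulated data. Alternatives were other pseudocounts, filters, scalings and thresholds, summed paralogs and the other DMSO library as reference. Python 3.11.15, numpy 2.4.6, pandas 2.3.3, Biopython 1.88 and matplotlib 3.10.9 were used.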

Additional observations from a re-analysis of the deposited data

Results flagged for a closer look

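For TUBA1A, both doses were above DMSO at 24 h and below it at 48 h. The mean log2 difference of both doses at 24 h minus that at 48 h was 0.92. TUBA4A had the same opposite directions, with a gap of 0.42, and at 200 nM 48 h the values were close to 0, at -0.01 for TUBA1A and -0.00 for TUBA4A, and turned positive after rescaling to TPM, at 0.009 and 0.0188. The sum of TUBA1A and its near-identical paralogs TUBA1B and TUBA1C was below DMSO at both times. TUBA1A held no more than 9.34% of the alpha sum in any library, so this sum does not give the direction of TUBA1A. With 1 library per condition these gaps between the times were not tested, and the share of all genes with such opposite directions was not counted. Both doses of a time share 1 DMSO library, and both genes had their lowest level in DMSO 24 h.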

How the results depend on the processing

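With 1 library per condition, no value has an error between cultures, and time, culture and the DMSO library used cannot be told apart. The number of members called and their median stayed within the limits set under pseudocounts of 0.1 and 0.01, other filters, TPM and median-of-ratios scaling, as did the sums under both scalings. These scalings changed the sign of 3 of 40 single values each, all close to 0. A 1.5-fold threshold gave 1 higher at 100 nM 24 h, 2 higher and 1 lower at 200 nM 24 h, and 1 higher from 100 nM to 200 nM at 24 h. Between the DMSO libraries the TUBA1 sum, in which TUBA1A is a small part, stood at -0.27, where TUBA1A alone stood at 1.25. Values of near-identical paralogs replaced by those of their sums changed sign against DMSO in 3 of 20 cases. The reference library mattered most, an alternative chosen after seeing the data: 16 of 40 values against DMSO changed sign with the other DMSO library. The members' median then was -0.081 for 200 nM at 24 h, and -0.21 (100 nM) and -0.17 (200 nM) at 48 h, with 1 member, TUBA1A, called higher for 200 nM at 48 h. The alpha sum was -0.021 (100 nM) and -0.28 (200 nM) at 24 h, then -0.30 and -0.49 at 48 h, and the beta sum 0.052 and -0.094, then -0.21 and -0.25. Among the lists, median-of-ratios scaling left 0 genes called for 200 nM at 24 h among the modifying enzymes. A pseudocount of 0.1 gave 1 (100 nM) and 2 (200 nM) modifying enzymes called higher at 24 h, and for microtubule binding 2 lower (100 nM) and 1 higher (200 nM) at 48 h, with 5 higher between the DMSO libraries and 2 and 6 higher in the dose steps at 24 h and 48 h. It gave 1 other tubulin higher between the DMSO libraries and 1 in the dose step at 24 h, and 1 modifying enzyme in that at 48 h. Depth limits TUBB2B alone among the members. No replicate block was fitted, since the labels give no replicate numbers and each dose and time has a single library.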
